A study of Rattus norvegicus with 8 samples.

Results

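The antioxidant and glutathione enzymes were examined in the left ventricle of rat hearts after ischemia and reperfusion. The set was defined by gene symbol alone, with no measured value: glutathione S-transferases of 6 named classes, peroxiredoxins, glutathione peroxidases, superoxide dismutases and thioredoxin reductases, together with 13 single genes such as Hmox1, Nqo1, Gclc, Cat, Nfe2l2 and Keap1. It came to 49 genes, covered by 51 probe sets, out of 14497 named genes and 28826 probe sets on the array. Gsta4 and Prdx1 had 2 probe sets each and were represented by the brighter of them. All animals were female rats in late pregnancy, and the hearts of both groups went through ischemia followed by reperfusion. Placebo hearts (3 arrays) received a vehicle with reperfusion. ILPD hearts (5 arrays) received the treatment that the labels abbreviate ILPD and the design text ITLD, as 1 bolus of 5 mg/kg. The series title names Intralipid, a lipid emulsion for intravenous use, and both abbreviations are taken here to mean it. The labels give no strain, no reperfusion time and do not say whether the arrays of a group come from different animals, so what the p-values reflect is array-to-array spread, in part perhaps technical. Hearts without ischemia were not analysed here.

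Reperfusion floods heart muscle with superoxide and hydrogen peroxide. Superoxide dismutases turn superoxide into hydrogen peroxide, which catalase, the glutathione peroxidases and the peroxiredoxins then remove. Glutathione reductase and the thioredoxin reductases restore the spent thiols with NADPH, and glutathione S-transferases couple glutathione to reactive lipid aldehydes and other electrophiles. Many of these genes are read by the transcription factor NRF2 (Nfe2l2), which KEAP1 marks for degradation until oxidants or electrophiles modify KEAP1. NRF2 binds the antioxidant response element, a short DNA motif, with small MAF proteins. Since it is governed mostly at the level of the protein, its activity is usually read from the transcripts of its targets.

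To show what such elements look like in these genes, the promoter windows of RefSeq (assembly GRCr8, from 250 bases before to 50 after the annotated start) were searched on both strands for the core letters TGACNNNGC of the response element and for TGACTCA, the AP-1 motif. A window was at hand for 40 of the 49 genes. The 6 sites below are shown because they lie in genes on which the results or the pathway turn. Each is written 5′ to 3′ along the gene's own strand, with the match to TGACNNNGC, or to its reverse complement, in capitals.
Gclm: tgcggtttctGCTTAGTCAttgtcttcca
Gstp1: tccactgtgtTGACTCAGCatccggggcg
Prdx1: cagggaaagcGCTGAGTCAtaccccgccg
Txnrd1: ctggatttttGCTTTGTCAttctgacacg
Gsta1: aactcaggcaTGACTTTGCatttttcttc
Gsta3: aactcaggcaTGACTTCGCattttttcct
The Gclm window lies at chr2:213031953-213031981 on the plus strand, and its site begins 172 bases before the annotated start. Those of Gstp1 (chr1:210769748-210769776, minus strand) and Prdx1 (chr5:135383761-135383789, plus strand) begin 61 and 135 bases before it, and in both the AP-1 letters overlap the element. The Txnrd1 site (chr7:22755964-22755992, minus strand) begins 78 bases before the start, and the Gsta3 site (chr9:31154962-31154990, plus strand) 17 bases before it. The Gsta1 site (chr9:31216484-31216512, minus strand) lies just past the annotated start.

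TGACNNNGC occurred in 13 of the 40 genes with a window (32.5%) and in 13 of their 45 windows, against 12.1% of all 33469 windows. The other 7 genes were Gpx2, Gstm5, Gstm7, Nfe2l2, Prdx4, Prdx5 and Sod2. TGACTCA occurred in 5 of the 40 (Gstm5, Gsto1, Gstp1, Prdx1 and Srxn1) and in 5 of the 45 windows, against 4.63% of all windows. A gene with several annotated starts had several windows, any of which could match, so the share per gene is not the like of the share per window. The Gst windows share ancestry, and a match is a description of the letters, not of binding. The 13 genes with the response element letters had 6 positive and 7 negative differences between ILPD and placebo, and the 27 without had 9 positive and 18 negative ones.

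Of the 49 genes, 0 rose and 1 fell in ILPD at an adjusted p of 0.05 (limma, Benjamini-Hochberg over all 28826 probe sets). Over all probe sets 2.81% passed, 1.96% higher and 0.857% lower. The gene that fell was Gstm2, a mu-class glutathione S-transferase. At an unadjusted p under 0.05 there were 6 genes, 2 higher (Gsta1 and Gsr) and 4 lower (Gstm2, Gstk1, Prdx6 and Sod1), or 12.2% of the set, against 18.3% of all probe sets. The groups did not overlap for 6 genes (Gstm2, Gstk1, Prdx6, Sod1, Gsta1 and Gstm3), again 12.2%, against 12.4% of all probe sets. Of these 2 were higher and 4 lower in ILPD, beside 7.95% and 4.42% of all probe sets. The shares of the set with a background beside them lay below or at it, except in the lower direction. Those lower shares rest on 1 gene at the adjusted p (2.04% against 0.857%) and on 4 genes without overlap (8.16% against 4.42%). No background by direction was taken for the unadjusted p.

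The differences were small. On the log2 scale 25 of 49 lay within 0.1 of 0 and 47 within 0.3, and 1 gene, Gsta1, differed by at least 1.5-fold, a size that 1.23% of all probe sets reached. The 95% interval of the difference lay inside 1.5-fold in both directions for 46 genes. The 3 exceptions were Gsta1, Hmox1 and Gstt2. The median difference of the set was -0.05, with 30 negative and 19 positive values, beside a median of 0.02 and 41.5% negative values over all probe sets. The plot of differences by role shows these values gene by gene.

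**Figure D1:**
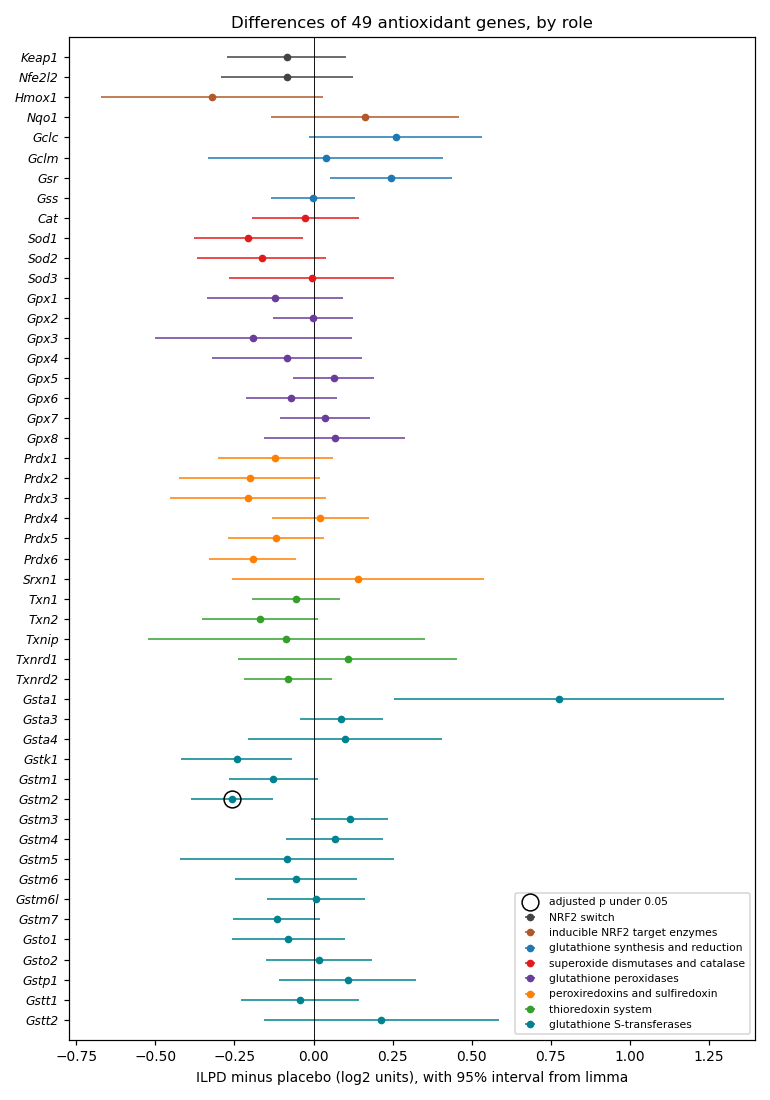
Difference between ILPD (5 arrays) and placebo (3 arrays) in log2 units for each of the 49 genes, grouped by role; points are differences, lines 95% intervals from limma, and the black ring marks an adjusted p under 0.05. Most points lie within 0.3 of 0, Gstm2 at -0.26 carries the ring, and Gsta1 stands farthest out at 0.78.

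The sensor and its factor differed little between the groups. Nfe2l2, the gene of NRF2, read 11.03, 11.22 and 11.24 in the placebo hearts and 11.33, 11.10, 10.997, 11.06 and 10.91 in the ILPD hearts. Both the highest and the lowest value belonged to ILPD arrays, so the groups overlapped. The difference was -0.08 (SE 0.09, limma adjusted p = 0.699), with a 95% interval from -0.29 to 0.12. Keap1, the sensor, read 9.24, 9.14 and 9.10 in placebo and 9.15, 9.17, 9.14, 8.82 and 9.10 in ILPD. ILPD array 4 was lower than all others, and the other ILPD arrays lay close to or within the placebo range. Its difference was -0.09 (SE 0.08, adjusted p = 0.652).

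The inducible enzymes most often used to read NRF2 activity differed in opposite directions, and neither passed the test. Hmox1, heme oxygenase 1, breaks heme down to biliverdin, carbon monoxide and iron. It read 10.05, 10.66 and 10.73 in placebo and 10.12, 10.42, 10.27, 10.05 and 9.94 in ILPD. Placebo arrays 2 and 3 lay above every ILPD array, while placebo array 1 lay among the lowest. The difference was -0.32 (SE 0.16, limma adjusted p = 0.320), and it was -0.54 without placebo array 1 (adjusted p = 0.0732), -0.23 without placebo array 2 (0.614) and -0.20 without placebo array 3 (0.5995). Nqo1, a quinone reductase, read 8.80, 8.59 and 8.86 in placebo and 9.04, 9.13, 9.10, 8.56 and 8.74 in ILPD. ILPD arrays 1 to 3 were above all placebo arrays and ILPD arrays 4 and 5 were not. The difference was 0.16 (SE 0.13, adjusted p = 0.581).

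Glutathione synthesis and recycling had 3 positive differences and 1 near 0, none past the test. Gclc, the catalytic subunit of glutamate-cysteine ligase, which sets the rate of glutathione synthesis, read 8.69, 8.75 and 9.16 in placebo and 9.04, 9.37, 8.99, 9.21 and 9.01 in ILPD. Placebo array 3 reached into the ILPD range while the other placebo arrays lay below it. The difference was 0.26 (SE 0.12, limma adjusted p = 0.299), and it was 0.17 without placebo array 1 (adjusted p = 0.651), 0.20 without placebo array 2 (0.570) and 0.41 without placebo array 3 (0.121). Gclm, the modifier subunit of the same enzyme, split the ILPD group. It read 10.23, 10.19 and 10.16 in placebo, against 10.51, 10.48 and 10.45 in ILPD arrays 1 to 3 and 9.96 and 9.77 in ILPD arrays 4 and 5. The placebo values lay in the gap between the 2 parts of the ILPD group, and the mean difference was 0.04 (SE 0.17, adjusted p = 0.934).

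Gsr, glutathione reductase, read 8.50, 8.26 and 8.24 in placebo and 8.54, 8.79, 8.52, 8.56 and 8.48 in ILPD. ILPD array 5 fell just below placebo array 1, and all other ILPD arrays were above the placebo group. Means of 8.33 ± 0.14 (SD, n = 3) in placebo and 8.58 ± 0.12 (SD, n = 5) in ILPD gave a difference of 0.25 (SE 0.09, limma adjusted p = 0.167), a fold of 1.19. It was 0.20 after quantile normalization, 0.23 after cyclic loess and 0.19 to 0.33 without single arrays. Several of the 16 alternatives leave the difference unchanged. Over all of them the limma adjusted p ran from 0.124 to 0.381. Gss, which adds glycine in the last step of glutathione synthesis, had a difference of -0.002 with an interval from -0.13 to 0.13.

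**Figure D2:**
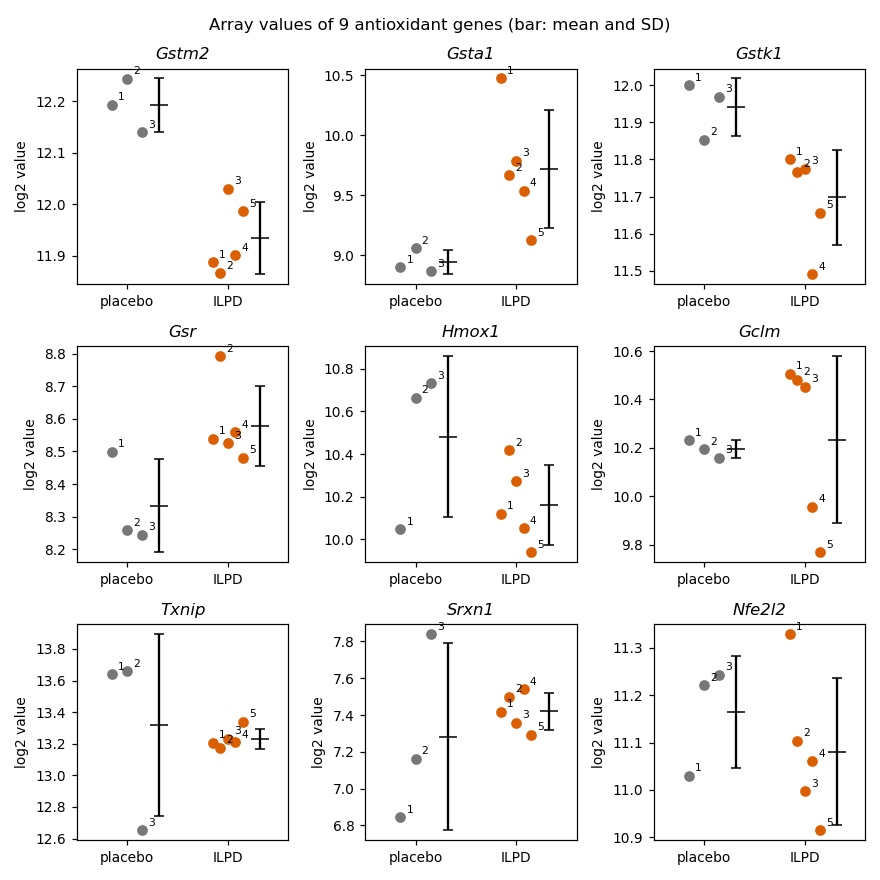
Log2 value on each array for 9 genes, with the array number beside each point and the mean and SD of each group as a black bar (3 placebo and 5 ILPD arrays; each axis has its own range and does not start at 0). The groups are apart for Gstm2, Gsta1 and Gstk1, ILPD arrays split around the placebo values for Gclm, and single placebo arrays lie far from the others for Hmox1, Txnip and Srxn1.

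The 3 superoxide dismutases and catalase had negative differences as deposited, those of Sod3 and Cat turning positive after either normalization, and 0 of the 4 passed. Sod1, the cytosolic copper and zinc enzyme, read 11.72 on each of the 3 placebo arrays (SD 0.00468) and 11.59, 11.66, 11.55, 11.30 and 11.47 in ILPD. Every ILPD array was lower than every placebo array, with ILPD array 4 the lowest. The difference was -0.21 (SE 0.08, limma adjusted p = 0.196). Sod2, the manganese enzyme of mitochondria, read 12.26, 12.16 and 12.17 in placebo and 12.24, 12.19, 11.96, 11.88 and 11.91 in ILPD. Here ILPD arrays 1 and 2 lay within the placebo range and the other 3 below it, giving -0.16 (SE 0.09, adjusted p = 0.389). Cat, catalase, read 13.25, 13.30 and 13.21 in placebo and 13.15, 13.25, 13.43, 13.09 and 13.23 in ILPD. ILPD array 3 was the highest and ILPD array 4 the lowest of the 8, and the difference was -0.03 (SE 0.08, limma adjusted p = 0.903; interval -0.20 to 0.14). Sod3, the extracellular enzyme, differed by -0.01 (interval -0.27 to 0.26).

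The glutathione peroxidases gave 3 positive and 5 negative differences between -0.19 and 0.07, and 0 of 8 passed. Gpx1, the selenoenzyme of cytosol and mitochondria, read 13.04, 12.94 and 13.01 in placebo and 13.18, 12.86, 12.85, 12.70 and 12.78 in ILPD. ILPD array 1 was the highest of all and the other ILPD arrays were below the placebo group, for a difference of -0.12 (SE 0.10, limma adjusted p = 0.564). Gpx3, the secreted plasma form, read 12.06, 12.00 and 11.59 in placebo and 11.42, 11.52, 11.91, 11.92 and 11.69 in ILPD. Its spread within each group, with SDs of 0.25 and 0.22, exceeded the difference of -0.19 (SE 0.14, adjusted p = 0.527). Gpx4, which reduces lipid hydroperoxides in membranes and restrains ferroptosis, differed by -0.08 (SE 0.11, adjusted p = 0.742; interval -0.32 to 0.15).

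Among the peroxiredoxins, the thiol peroxidases, 5 of 6 had negative differences as deposited, that of Prdx1 turning positive and the positive one of Prdx4 negative after either normalization, and 0 of 7 passed when Srxn1 is counted with them. Prdx6, the member that works with glutathione, read 12.01, 11.98 and 11.98 in placebo and 11.78, 11.79, 11.85, 11.66 and 11.90 in ILPD. All ILPD arrays lay below all placebo arrays, and the difference was -0.19 (SE 0.06, limma adjusted p = 0.129). Prdx3, the mitochondrial member, read 12.57, 12.33 and 12.48 in placebo and 12.54, 12.40, 12.14, 12.06 and 12.14 in ILPD. As for Sod2, ILPD arrays 1 and 2 stayed in the placebo range and the other 3 lay below it (difference -0.21, SE 0.11, adjusted p = 0.366).

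Prdx1, a cytosolic member, read 12.85, 12.76 and 12.97 in placebo and 12.90, 12.81, 12.71, 12.57 and 12.72 in ILPD, and its difference was -0.12 (SE 0.08, limma adjusted p = 0.483). A dimmer probe set for it gave -0.14 (adjusted p = 0.505). The RefSeq table also lists a near copy, Prdx1l1, so the signal of the 2 probe sets cannot be assigned to 1 locus with certainty. Prdx2 (-0.20), Prdx5 (-0.12) and Prdx4 (0.02) did not pass either. Srxn1, sulfiredoxin, repairs peroxiredoxins whose catalytic cysteine has been overoxidised. It read 6.84, 7.16 and 7.84 in placebo and 7.42, 7.50, 7.36, 7.54 and 7.29 in ILPD. The placebo arrays spanned a wider range (SD 0.51) than the ILPD arrays (SD 0.10), which all lay inside it, and the difference of 0.14 (SE 0.18) had an adjusted p of 0.746 in limma. Without placebo array 3 it was 0.42 (adjusted p = 0.102), and without placebo array 1 it was -0.08.

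The thioredoxin system gave 1 positive and 4 negative differences, with 0 of 5 past the test. Txnip, which binds thioredoxin and restrains glucose uptake, read 13.64 and 13.66 on placebo arrays 1 and 2, 12.65 on placebo array 3, and 13.20, 13.17, 13.23, 13.21 and 13.34 in ILPD. The 5 ILPD arrays lay close together (SD 0.06) between the high and the low placebo values. The difference was -0.09 (SE 0.20, limma adjusted p = 0.872). Without placebo array 3 it was -0.42, which passed (adjusted p = 0.0291), while without placebo array 1 or 2 it was 0.08 or 0.09. Both the sign and the call for Txnip thus rested on single placebo arrays. Txnrd1, the cytosolic thioredoxin reductase, read 9.01, 9.17 and 9.52 in placebo and 9.25, 9.71, 9.49, 9.20 and 9.04 in ILPD, with the groups overlapping throughout (difference 0.11, SE 0.16, adjusted p = 0.778). Txn1 (-0.06), Txn2 (-0.17) and Txnrd2 (-0.08), the last 2 being mitochondrial, did not pass.

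The glutathione S-transferases held the call and the widest range, with 9 positive and 8 negative differences among 17 genes. Gstm2 (probe set 10825915) read 12.19, 12.24 and 12.14 in placebo and 11.89, 11.87, 12.03, 11.90 and 11.99 in ILPD. The lowest placebo array was above the highest ILPD array. The group means were 12.19 ± 0.05 (SD, n = 3) in placebo and 11.93 ± 0.07 (SD, n = 5) in ILPD. Gstm2 thus fell by 0.26 log2 units (SE 0.06), or 1.20-fold, with a limma adjusted p of 0.0476. The call rested on the full set of arrays: it was lost when any 1 of the 8 was left out, with an adjusted p between 0.0507 and 0.158. It was also lost with the trend and robust prior (0.0839), with the replicate number as a block (0.1705), after quantile normalization (-0.13, adjusted p = 0.416) and after cyclic loess (-0.11, adjusted p = 0.482). The block fit drew its difference only from array numbers present in both groups. The Gstm2 difference stayed negative after both normalizations. As the groups did not overlap, the other alternatives could not have turned its sign.

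The other mu-class genes are related in sequence to Gstm2, and without probe sequences the signal of each cannot be separated with certainty. Their mean log2 values ran from 5.83 for Gstm6 to 11.60 for Gstm1, beside 12.03 for Gstm2. Gstm1 differed by -0.13 (SE 0.06, limma adjusted p = 0.324) and Gstm7 by -0.12 (SE 0.06, adjusted p = 0.352). Gstm3, a dim probe set, differed by 0.11 (SE 0.05, adjusted p = 0.306) with no overlap between groups. The mu class thus had 5 negative and 3 positive differences, from -0.26 to 0.11, of which 1 passed.

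Gsta1, an alpha-class enzyme that conjugates glutathione and reduces lipid peroxides, had the largest difference of the set without passing the test. It read 8.90, 9.06 and 8.87 in placebo and 10.47, 9.66, 9.79, 9.54 and 9.12 in ILPD. All 5 ILPD arrays were above all 3 placebo arrays, but they spread widely (SD 0.49), from ILPD array 1 at the top to ILPD array 5 next to the placebo range. The difference was 0.78 (SE 0.23, limma adjusted p = 0.114), a fold of 1.71 with a 95% interval from 1.19 to 2.46. Without ILPD array 5 it was 0.92 and passed (adjusted p = 0.0409), and without ILPD array 1 it was 0.59. The groups stayed apart after quantile normalization and after cyclic loess, with differences of 0.78 and 0.82. The other alpha-class genes, Gsta3 (0.09) and Gsta4 (0.10), did not pass.

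Gstk1, the kappa-class enzyme of mitochondria and peroxisomes, read 12.00, 11.85 and 11.97 in placebo and 11.80, 11.77, 11.77, 11.49 and 11.66 in ILPD. All ILPD arrays were below all placebo arrays, for a difference of -0.24 (SE 0.08, limma adjusted p = 0.138). Gstt2, of the theta class, read 10.62, 10.59 and 10.25 in placebo and 10.56, 10.80, 11.21, 10.52 and 10.43 in ILPD. ILPD array 3 was the highest and placebo array 3 the lowest of the 8. The difference was 0.21 (SE 0.17, adjusted p = 0.554), and 0.09 without ILPD array 3 or 0.10 without placebo array 3. Gstp1, the pi-class enzyme, differed by 0.11 (SE 0.10, adjusted p = 0.615), and Gsto1, Gsto2, Gstt1, Gstm4, Gstm5, Gstm6 and Gstm6l lay between -0.08 and 0.07.

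**Figure D3:**
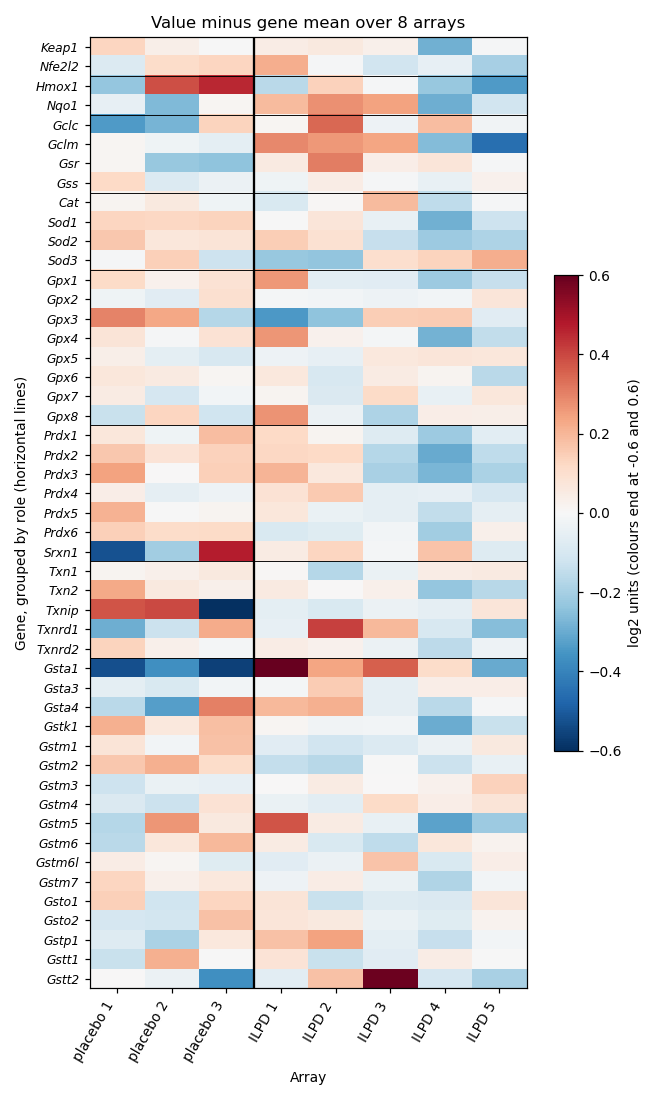
Value of each gene on each array minus that gene's mean over the 8 arrays, in log2 units (red above, blue below; colours end at -0.6 and 0.6), with genes grouped by role and placebo arrays left of the vertical line. Sod2 and Prdx2 are red on the placebo arrays and blue on ILPD arrays 3 to 5, ILPD array 4 holds the lowest value of 18 genes, and Gsta1 is the row that differs most clearly between groups.

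A single array was low for many of these genes. ILPD array 4 held the lowest of the 8 values for 18 of the 49 genes, where the other arrays held it for 1 to 8 genes each. Placebo array 1 held the highest value for 14 genes and placebo array 3 for 10. The median deviation from the gene means over the set was -0.09 on ILPD array 4, against a range from -0.03 to 0.06 on the other 7. The median of all probe sets on ILPD array 4 was 7.20, the highest of the 8. Since 27371 of the 28826 probe sets had a mean under 11, that median does not show how bright probe sets read there. The cause of the low values was not tested.

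The sign of a difference went with the brightness of the probe set. All 19 genes with a mean log2 value of 11 or more had a negative difference, with a median of -0.13; the border of 11 was chosen after the data were seen. These 19 include Sod1, Sod2, Sod3, Cat, Gpx1, Gpx3, Prdx1, Prdx2, Prdx3, Prdx6, Txn1, Txn2, Gstk1 and Gstm2. Of all 1455 probe sets that bright, 85.1% were negative too, with a median of -0.14. The 30 dimmer genes had 19 positive and 11 negative differences and a median of 0.04, beside a median of 0.03 over all dimmer probe sets. The bright members therefore lay where bright probe sets in general lay on these arrays, as the plot of differences against mean value shows.

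After cyclic loess normalization, which evens out shifts that depend on brightness, 9 of the 19 bright genes were negative and 10 positive, with a median of 0.01. After quantile normalization 10 were negative and 9 positive. Over all 49 genes the sign turned for 14 after quantile normalization and for 13 after cyclic loess, 12 of them shared, and 0 of these passed. The groups then overlapped for Gstm2, Gstm3, Sod1 and Prdx6 under both, and for Gstk1 after cyclic loess. What moved the bright probe sets was not tested. Of the 6 genes whose groups were apart as deposited, Gsta1 alone was apart under both normalizations.

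**Figure D4:**
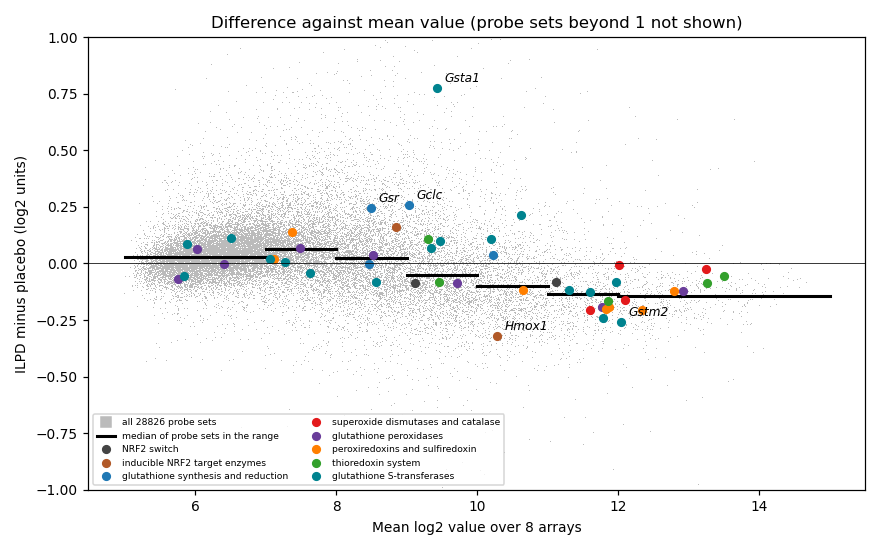
Difference between ILPD and placebo against the mean log2 value over 8 arrays, for all 28826 probe sets (grey; those beyond 1 in either direction not drawn) and the 49 genes (coloured by role), with the median of all probe sets in each range of mean value as a black line. The black line falls from 0.06 between 7 and 8 to -0.14 at 12 and over, and the bright antioxidant genes scatter around it.

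Genes of the same pathways outside the set were read from lists. Of 36 further glutathione and thioredoxin genes with a probe set, 2 rose and 1 fell, or 8.33% against 2.81% of all probe sets. At an unadjusted p under 0.05 there were 10 (3 higher, 7 lower), or 27.8% against 18.3%. Glrx, glutaredoxin 1, which removes glutathione from protein thiols, averaged 9.84 ± 0.12 (SD, n = 3) in placebo and 10.45 ± 0.25 (SD, n = 5) in ILPD and so rose by 0.60 (SE 0.13, limma adjusted p = 0.0441). Mgst2, a microsomal glutathione transferase that also makes leukotriene C4, rose by 0.50 (SE 0.10, adjusted p = 0.0381), from 7.06 ± 0.10 to 7.56 ± 0.19. Slc25a39, the carrier that brings glutathione into mitochondria, fell by 0.34 (SE 0.08, adjusted p = 0.0467). For all 3 the groups did not overlap. Their calls were each lost without placebo array 1, 2 or 3, without ILPD array 2 and with the replicate number as a block. That of Glrx was also lost without ILPD array 4, that of Mgst2 without ILPD array 3, and that of Slc25a39 without ILPD array 3, 4 or 5 and with the trend and robust prior. Glrx passed after both normalizations and the other 2 did not. The highest adjusted p over the alternatives was 0.152, 0.129 and 0.170.

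Of 34 further targets commonly assigned to NRF2, 1 rose and 1 fell (5.88% against 2.81% of all probe sets), with 18 positive and 16 negative differences. Slc48a1, a heme transporter, fell by 0.33 (SE 0.07, limma adjusted p = 0.0370), and Ces1d, a carboxylesterase, rose by 0.28 (SE 0.06, adjusted p = 0.0424). Both calls were lost after either normalization, with the trend and robust prior, with the replicate block, without placebo array 2 or 3 and without ILPD array 1, 2, 3 or 4, and the highest adjusted p was 0.166 and 0.135. An unadjusted limma p under 0.05 was reached by 8 of the 34 (4 higher, 4 lower), or 23.5% against 18.3%. Among genes that did not pass, Ugdh (0.50, limma adjusted p = 0.0800), Esd (-0.36, 0.110) and Mgst1 (0.32, 0.423) had the largest differences. The cystine importer Slc7a11 (0.17, adjusted p = 0.437), the ferritin chains Fth1 (-0.15, 0.142) and Ftl1 (0.02, 0.938) did not pass. Of the genes that did not pass, Ugdh, Esd, Nqo2 (-0.28, limma adjusted p = 0.0919) and Fth1 had groups without overlap. Among 22 partners and regulators of NRF2, 0 passed at the adjusted threshold in limma, and 2 higher and 6 lower ones had an unadjusted p under 0.05, or 36.4% against 18.3% of all probe sets. Of the 22 differences 17 were negative (77.3%, against 41.5% of all probe sets), with a median of -0.10. Several of these genes were bright, among them Cul3, Gsk3b and Park7 with both group means above 11. Of all probe sets at 11 and over, 85.1% were negative. The share was 72.6% from 10 to 11 and 61.8% from 9 to 10. Ep300, Rxra (-0.27, limma adjusted p = 0.0741) and Fyn (-0.25, 0.110) had group means under 11, and their groups did not overlap. The summed level of the list (log2 of the sum of linear values) was 14.84 to 14.87 in placebo and 14.55 to 14.77 in ILPD. The cause of the negative differences was not tested. The 2 higher ones at an unadjusted p under 0.05 were Syvn1 (0.22, limma adjusted p = 0.212) and Mafg (0.18, 0.190). Cul3, the scaffold of the KEAP1 ubiquitin ligase, differed by -0.22 (0.138), Bach1, the repressor that competes for the same element, by -0.11 (0.630), and Ep300, a coactivator, by -0.35 (0.0547).

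Of 23 genes that supply NADPH, 1 rose, or 4.35% against 2.81% of all probe sets. At an unadjusted limma p under 0.05 there were 6 (2 higher, 4 lower), or 26.1% against 18.3%. The gene that rose was Mthfd2, a mitochondrial folate enzyme, by 0.41 (SE 0.08, limma adjusted p = 0.0351). Its call was lost after either normalization, without any 1 placebo array, without ILPD array 2 or 4 and with the replicate block, where the adjusted p was highest (0.135). H6pd, which makes NADPH in the endoplasmic reticulum, differed by 0.39 (adjusted p = 0.0910). Of 19 genes of selenoprotein synthesis and other selenoproteins, 0 passed in limma. At an unadjusted p under 0.05 there were 5 (1 higher, 4 lower), or 26.3% against 18.3% of all probe sets. Selenom had the largest difference of the 19 (-0.37, adjusted p = 0.0801).

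Markers of the tissue and of other cells were read beside these values. The arrays carried the cardiomyocyte markers at high values, with a summed level (log2 of the sum of linear values) of 17.36 to 17.41 in placebo and 17.18 to 17.37 in ILPD. All 12 had negative differences (median -0.12) and a mean log2 value of at least 12.44, and of all probe sets at 12 and over 90.3% were negative, with a median of -0.14. Of these 12, 4 had an unadjusted limma p under 0.05, all lower (33.3%, against 18.3% of all probe sets). In this list 1 of 12, Tnnc1, fell (-0.37), or 8.33% against 2.81% of all probe sets. Its call was lost after either normalization, with the replicate block and without placebo array 2 or 3. Of 13 neutrophil markers 12 had positive differences and 1, Mmp9, rose (7.69%, against 2.81% of all probe sets). The median difference of these markers was 0.58. An unadjusted limma p under 0.05 was reached by 6 of them, all higher (46.2%, against 18.3% of all probe sets). Their summed level was 11.41 to 11.88 in placebo and 11.98 to 13.06 in ILPD, with no overlap. Every ILPD array lay above every placebo array both for this sum and for Gsta1. In both, ILPD array 1 was the highest and ILPD array 5 the lowest of the ILPD arrays. The order within the groups otherwise differed in part. On ILPD array 3 the neutrophil sum (12.22) was below that of ILPD arrays 2 and 4, while Gsta1 (9.79) was above both. Placebo array 2 had the lowest neutrophil sum (11.41) and the highest Gsta1 of the placebo arrays (9.06). The part of these cells in the Gsta1 and Mgst2 values was not tested. Of 7 adipocyte markers all had positive differences and 1, Fabp4, rose (14.3%), with summed levels of 11.002 to 11.36 in placebo and 11.50 to 11.85 in ILPD. Among the 7, 2 had an unadjusted limma p under 0.05, both higher (28.6%). The call of Mmp9 was lost in 12 of 15 alternatives, and that of Fabp4 with the replicate block and without placebo array 1 or 3.

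Red blood cells carry much catalase, Prdx2 and Gpx1, and 8 of their markers were measured, of which 0 passed in limma, also at an unadjusted p under 0.05, with summed levels of 12.88 to 13.68 in placebo and 12.86 to 13.74 in ILPD, overlapping throughout. In the macrophage list 1 of 12 rose (Cx3cr1, 8.33%), in the endothelial list 1 of 9 (Egfl7, 11.1%) and in the fibroblast list 0 of 9, against 2.81% of all probe sets. At an unadjusted limma p under 0.05 there were 4 macrophage and 3 endothelial markers, all higher (33.3% of each list). The fibroblast list had 1, lower (11.1%), and all probe sets 18.3%. The macrophage summed level was 13.04 to 13.50 in placebo and 13.45 to 14.07 in ILPD, with 9 of 12 differences positive. The calls of Cx3cr1 and Egfl7 were lost after quantile normalization, without any 1 placebo array and without ILPD array 2. That of Cx3cr1 was also lost with the replicate block, and that of Egfl7 without ILPD array 3. In whole tissue, fewer cells of a type and less RNA per cell cannot be told apart. The arrays measure transcripts, so they do not speak to the activity of these enzymes.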

How the data were processed

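The authors deposited log2 expression values for 8 Affymetrix arrays of left ventricle; the log2 scale was settled from their range. Per the submitters' processing notes, R 2.14.2 was used; summarisation and normalization are not given in the sources used here. Array medians ran from 7.08 to 7.14 in placebo and from 7.16 to 7.20 in ILPD, so they did not overlap between the groups as deposited. Precision is limited by having 8 arrays. Gene names came from the platform annotation (15209 probe sets with 1 symbol, 306 with several, 13311 with none here) and, for the lists, from RefSeq GRCr8 by gene ID (15178 matched). All probe sets were fitted with limma 3.58.1 in R 4.3.3 (lmFit, eBayes, no covariates), two-sided, at a Benjamini-Hochberg adjusted p of 0.05; no detection call was available, so no value was treated as background. The fit was tested on simulated data. Array values were given for called genes of the set, the 8 largest differences and 15 genes of prior interest, and for Sod1, Prdx6 and others chosen after their values were seen. The genes and lists were chosen with earlier results of these data known. Alternatives are given in the closing section. Figures used matplotlib 3.10.9.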

Additional observations from a re-analysis of the deposited data

Results flagged for a closer look

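In the ILPD group (5 arrays; the placebo group of 3 was too small for this check) 3 of 49 genes had an array far from the others relative to the group's range, and chance alone marks about 1 in 20 groups. Gpx2 read 6.48 on ILPD array 5, against 6.38 to 6.40 on the other 4. Gsr read 8.79 on ILPD array 2, against 8.48 to 8.56. Keap1 read 8.82 on ILPD array 4, against 9.10 to 9.17.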

How the results depend on the processing

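In all, 16 alternatives were run: a robust prior with an intensity trend, quantile normalization, cyclic loess, removal of probe sets in the dimmest 40% (43 genes kept), weights per array, replicate number as a block, a threshold of 0.1, averaged probe sets per gene, and 8 fits without 1 array. The rescaling for linear values was not needed. The count of genes that fell was 0 in place of 1 with the trend, with either normalization and with the replicate block, and 0 to 1 without single arrays (the 1 being Txnip). The count that rose stayed at 0 except for 1 with the replicate block (Gsta1, 1.03, adjusted p = 0.0494) and 0 to 1 without single arrays. ILPD arrays 4 and 5 have no placebo array of the same number, so the block fit takes no group difference from them. Its differences therefore compare the same-numbered arrays alone and are not an adjustment of all 8 arrays. The median difference was -0.00621 after quantile normalization and 0.00642 after cyclic loess, and -0.0665 to -0.0215 without single arrays. After quantile normalization and cyclic loess, the sign turned for 14 and 13 of the 49 genes, among them Cat (0.124 and 0.160), Gpx1 (0.0238 and 0.0547), Nfe2l2 (0.0214 and 0.0336), Prdx1 (0.0142 and 0.0515), Txnip (0.0573 and 0.101), Sod3 (0.123 and 0.141) and Txn1 (0.0876 and 0.138). With the replicate block Cat was 0.0200. Without single arrays Cat ran from -0.0765 to 0.00889, Gclm from -0.0300 to 0.155, Srxn1 from -0.0790 to 0.419, Txnip from -0.419 to 0.0853 and Txnrd1 from -0.00483 to 0.252. Same-numbered arrays did not deviate together (correlations 0.221, -0.0642 and -0.098), so the numbers were not taken as pairs; the block left 459 calls over all probe sets, against 811. Calls over all probe sets ran from 172 without placebo array 2 to 1756 at the threshold of 0.1.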
